A study of Mus musculus with 8 samples.

Results

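The unfolded protein response and the integrated stress response were followed here through 32 genes, of 19120 genes tested on the arrays. The genes were taken by symbol, each probe being named through its RefSeq accession, and every one of the 32 was measured well above background on all 8 arrays. They fall into 4 classes by role: 13 chaperones and folding enzymes of the endoplasmic reticulum (ER), 6 genes of ER-associated degradation, 5 stress sensors and transcription factors, and 8 genes regulated by the transcription factor ATF4. RNA of primary microglia, the macrophages of the brain, from C57BL/6 mice was hybridised to 8 one-colour arrays. The cells received an Fc fusion of Ecrg4(71-132), the stretch of the secreted protein Ecrg4 from residue 71 to residue 132, an Fc fusion of Ecrg4(133-148), Fc alone or PBS. The 3 proteins were used at 20 µg/ml and PBS as the vehicle, each for 3 h, with 2 arrays per treatment. The submitters number the arrays of each treatment as set 1 and set 2, and each set holds 1 array of every treatment. No label says that the sets are separate cultures or animals, so p-values measure only the spread between these samples, which may be technical.

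Proteins that enter the ER fold there with the help of chaperones, and when unfolded proteins build up, the membrane sensors IRE1, PERK and ATF6 are activated. IRE1 splices the Xbp1 message and ATF6 is cut to release a transcription factor, and both factors switch on chaperone and degradation genes. PERK phosphorylates a translation initiation factor, which lowers protein synthesis as a whole while translation of ATF4 rises. Kinases that sense amino acid lack, haem lack or double-stranded RNA act on the same factor, and this wider route is the integrated stress response. ATF4 is controlled largely in translation and XBP1 by splicing, so the array signals of Atf4 and Xbp1 are total message levels and do not read either step.

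Promoters were searched for short motifs known for these routes, and the sequences are shown because most chaperone genes and some ATF4 targets carry different motifs. The RefSeq promoter table of build GRCm38.p6 holds windows from 250 bases before to 50 bases after the start site for 28 of the 32 genes. Atf6, Derl1, Hyou1 and Manf are named only. Both strands were searched for the ER stress response element, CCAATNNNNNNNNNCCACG, which ATF6 binds together with NF-Y. It was found in 7 of 11 chaperone genes and in Syvn1 of the 5 degradation genes with a window, in 0 of 4 sensors and factors and in 0 of 8 ATF4 targets, and in 0.119% of all 32851 windows. In Hspa5 it lies at chr2:34772025-34772043. Each match follows in the orientation of the motif, 5′ to 3′, with the fixed letters in capitals.
Hspa5: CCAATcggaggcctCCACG
Hsp90b1, farther match: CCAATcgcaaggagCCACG
Hsp90b1, nearer match: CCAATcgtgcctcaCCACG
Calr: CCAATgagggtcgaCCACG
Canx: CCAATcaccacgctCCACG
Pdia6: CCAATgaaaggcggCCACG
Dnajc3: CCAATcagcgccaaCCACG
Creld2: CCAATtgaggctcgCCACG
Syvn1: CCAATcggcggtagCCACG

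Another form of this element, ATTGG and CCACG with 1 base between them, was found in Herpud1 and in 0.0365% of all windows. The composite site known for ATF4 and C/EBP factors, searched as TGATGNAA, was found in Chac1, Trib3 and Asns of the ATF4 targets and also in Herpud1, and in 3.97% of all windows. The motif TGACGTGG, known for XBP1, was found in none of the 28 genes and in 0.676% of all windows. The motifs were chosen with the array values of these genes known. No match overlapped another in these genes, and a window without a match says only that these letters are not in it. The 250 bases before the start site are given for Hspa5, Herpud1 and Chac1, 5′ to 3′ on the strand of the gene, with motif letters in capitals. In Herpud1 the capitals mark TGATGNAA on the opposite strand and then that other form, in Hspa5 the ER stress response element, and in Chac1 TGATGNAA on the opposite strand. The windows lie at chr2:34771840-34772089, chr8:94386179-94386428 and chr2:119350992-119351241, all on the plus strand.
Hspa5: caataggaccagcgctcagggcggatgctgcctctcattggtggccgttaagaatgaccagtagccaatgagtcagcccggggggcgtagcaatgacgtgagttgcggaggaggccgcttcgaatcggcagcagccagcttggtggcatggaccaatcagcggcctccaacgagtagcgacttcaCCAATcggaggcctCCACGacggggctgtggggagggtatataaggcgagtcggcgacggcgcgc
Herpud1: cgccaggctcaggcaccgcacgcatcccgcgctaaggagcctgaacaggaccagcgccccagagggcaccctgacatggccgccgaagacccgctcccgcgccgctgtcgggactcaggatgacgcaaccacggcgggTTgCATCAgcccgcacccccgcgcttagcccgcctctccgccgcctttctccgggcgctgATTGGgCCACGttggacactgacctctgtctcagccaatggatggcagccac
Chac1: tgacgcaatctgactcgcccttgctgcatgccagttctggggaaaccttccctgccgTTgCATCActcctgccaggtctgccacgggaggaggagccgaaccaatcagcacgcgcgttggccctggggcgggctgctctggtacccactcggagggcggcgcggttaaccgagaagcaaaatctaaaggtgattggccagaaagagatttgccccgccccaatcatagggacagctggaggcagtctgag

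Levels are log2 signals with the 75th percentile of each array set to 0, a gene is represented by 1 probe, and levels of different genes are not set against each other. Wherever 2 values of a treatment are given, the set 2 array comes before the set 1 array. Depending on the array, 24255 to 29483 probes exceeded background clearly, and the 75th percentile lay at 494.6 to 809.3 intensity units. With 2 arrays per treatment, precision is limited by their number and, in treatment tests without the set as a block, by the difference between the sets. Of 11 microglial marker genes, 10 were well above background on all 8 arrays. Of 6 fibroblast markers, 1 was well above background on all 8 arrays and each of the others on some, and the log2 of their summed signal ran from -1.28 to -0.12 in set 2 and from 4.56 to 5.68 in set 1. That of 9 oligodendrocyte markers ran from 6.53 to 6.80 in set 2 and from 5.41 to 5.49 in set 1, and that of 8 astrocyte markers from 3.64 to 3.85 in set 2 and from 3.44 to 4.33 in set 1. Of the astrocyte markers, 6 were among the genes tested, and 5 were lower and 1 was higher in set 2 (median -4.08 on the log2 scale, from -7.02 to 1.17). Aldh1l1 was the higher one and made up most of the astrocyte sum in set 2. The microglial markers moved with the set as well, with 7 of 11 lower in set 2 and 3 higher, a median of -1.70 and a range from -6.62 to 0.66. Cx3cr1, the fractalkine receptor gene of microglia, stood between -3.25 and -0.74 in set 2 and between 4.58 and 4.71 in set 1, whereas Csf1r, the receptor gene on which microglia depend, stood between 7.90 and 8.17 in set 2 and between 8.03 and 8.16 in set 1. The part of the microglial, fibroblast, oligodendrocyte and astrocyte markers in the differences between the sets was not tested. In RNA of whole cultures, fewer cells of a type and less RNA per cell cannot be told apart.

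**Figure D1:**
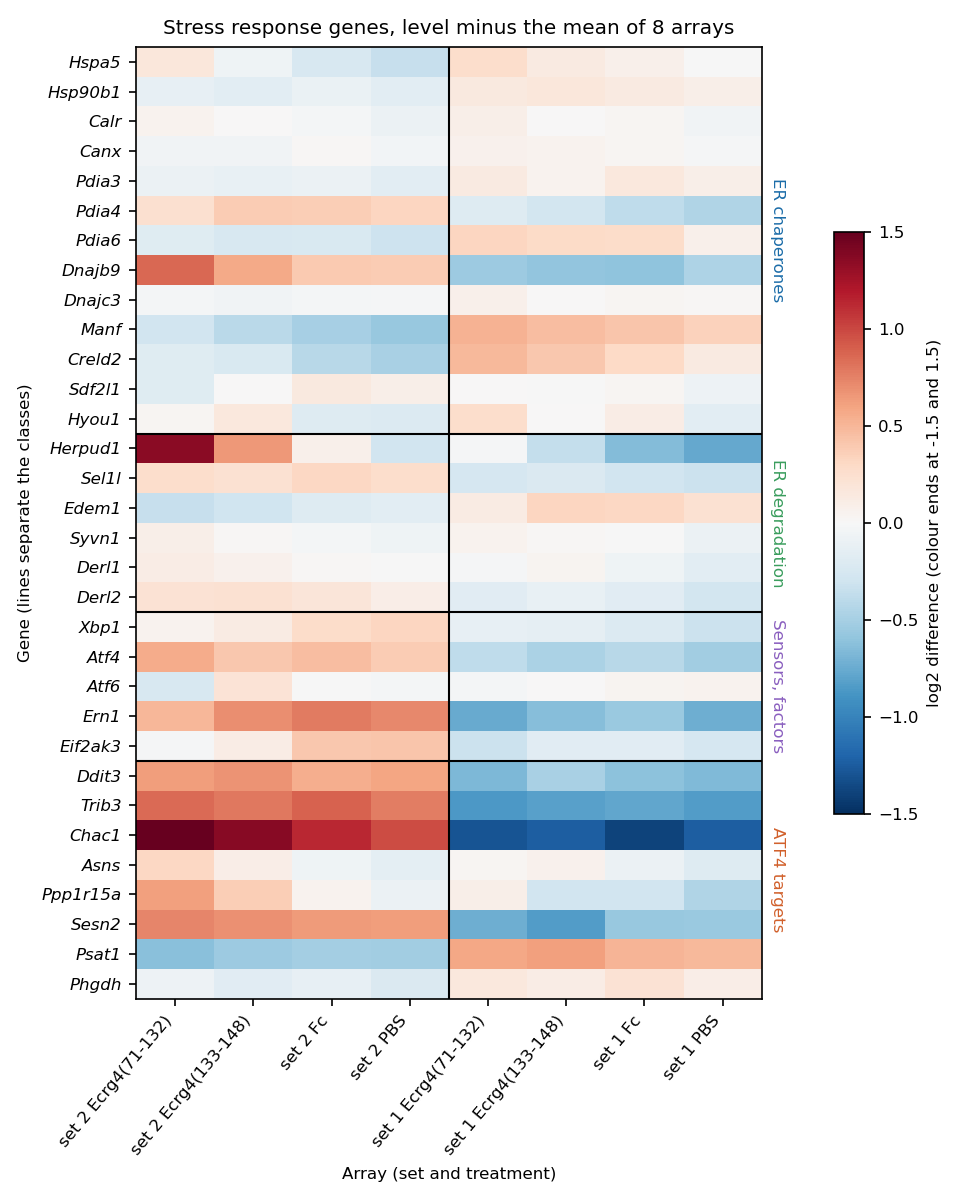
Level of each of the 32 genes (rows, grouped by class) on each of the 8 arrays (columns, set 2 left and set 1 right), as the log2 difference from the mean of the gene over the 8 arrays. Most ATF4 targets and sensors change colour at the line between the sets, and Herpud1, Ppp1r15a and Hspa5 also grade across the treatments within each set.

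Ecrg4(71-132) was compared with Fc, its carrier at the same dose, to ask which stress genes the fragment moved. The largest difference among the 32 genes was in Herpud1, a membrane protein that organises the complex for ER-associated degradation. Herpud1 stood at 5.77 and 4.39 with Ecrg4(71-132), at 5.06 and 4.06 with Ecrg4(133-148), at 4.49 and 3.76 with Fc, and at 4.13 and 3.64 with PBS. In each set the level was highest with Ecrg4(71-132) and lowest with PBS, while across sets the set 1 array of Ecrg4(71-132) lay below the set 2 array of Fc. The difference of Ecrg4(71-132) from Fc was 0.95 on the log2 scale (SE 0.59), or 1.94-fold, being 1.28 in set 2 and 0.63 in set 1. It did not pass the test (limma, adjusted p = 1, and 0.207 with the set as a block). Without the block it was 0.27 when the set 2 array of Ecrg4(71-132) was left out and 1.64 when the set 1 array was. The difference of Herpud1 between the sets enters those 2 values. With the block and each array left out in turn it ran from 0.63 to 1.27.

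Ppp1r15a encodes GADD34, the phosphatase subunit that restores translation after the integrated stress response, and it came next in size. Its level was 3.83 and 3.30 with Ecrg4(71-132), 3.59 and 2.93 with Ecrg4(133-148), 3.27 and 2.93 with Fc, and 3.13 and 2.77 with PBS. Both Ecrg4(71-132) arrays lay above both Fc arrays, the lower by a narrow margin. The difference from Fc was 0.47 (SE 0.32), 0.56 in set 2 and 0.37 in set 1, and did not pass (limma, adjusted p = 1, and 0.207 with the block). In fits without the block it was 0.20 when the set 2 array of Ecrg4(71-132) was left out and 0.73 when the set 1 array was. With the block and each array left out in turn it ran from 0.38 to 0.55.

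Hspa5 encodes BiP, the main Hsp70 chaperone of the ER and the usual marker of the unfolded protein response. It stood at 7.52 and 7.62 with Ecrg4(71-132), at 7.28 and 7.49 with Ecrg4(133-148), at 7.11 and 7.43 with Fc, and at 7.01 and 7.35 with PBS. The Ecrg4(71-132) arrays lay above both Fc arrays, and the range over all 8 arrays was small. The difference from Fc was 0.30 (SE 0.19), 0.41 in set 2 and 0.19 in set 1 (limma, adjusted p = 1, and 0.225 with the block). Its 95% interval, -0.19 to 0.79, became 0.08 to 0.53 with the set as a block. In fits without the block Hspa5 differed by 0.14 without the set 2 array of Fc and 0.46 without the set 1 array of Fc. With the block and each array left out in turn its difference ran from 0.21 to 0.40.

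Asns, the asparagine synthetase gene and an ATF4 target, stood at 6.15 and 5.87 with Ecrg4(71-132), at 5.94 and 5.90 with Ecrg4(133-148), at 5.78 and 5.75 with Fc, and at 5.69 and 5.65 with PBS. All 4 fragment arrays lay above the 4 control arrays. The difference of Ecrg4(71-132) from Fc was 0.24 (SE 0.14; limma, adjusted p = 1, and 0.265 with the block), with 0.10 when the set 2 array of Ecrg4(71-132) was left out and 0.38 when the set 1 array was. Those fits with an array left out had no block, and with it the difference of Asns ran from 0.12 to 0.37. Chac1, which encodes an enzyme that degrades glutathione, differed by 0.33 (SE 1.59), 0.56 in set 2 and 0.10 in set 1. That SE, from the fit without the block, includes the difference of Chac1 between the sets, 2.58. Ddit3, which encodes the pro-apoptotic factor CHOP, stood at 2.48 and 1.18 with Ecrg4(71-132), at 2.52 and 1.37 with Ecrg4(133-148), at 2.40 and 1.24 with Fc, and at 2.44 and 1.18 with PBS. Its arrays split by set and not by treatment, and the difference of Ecrg4(71-132) from Fc was 0.01 (SE 0.75, adjusted p = 1 in limma).

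**Figure D2:**
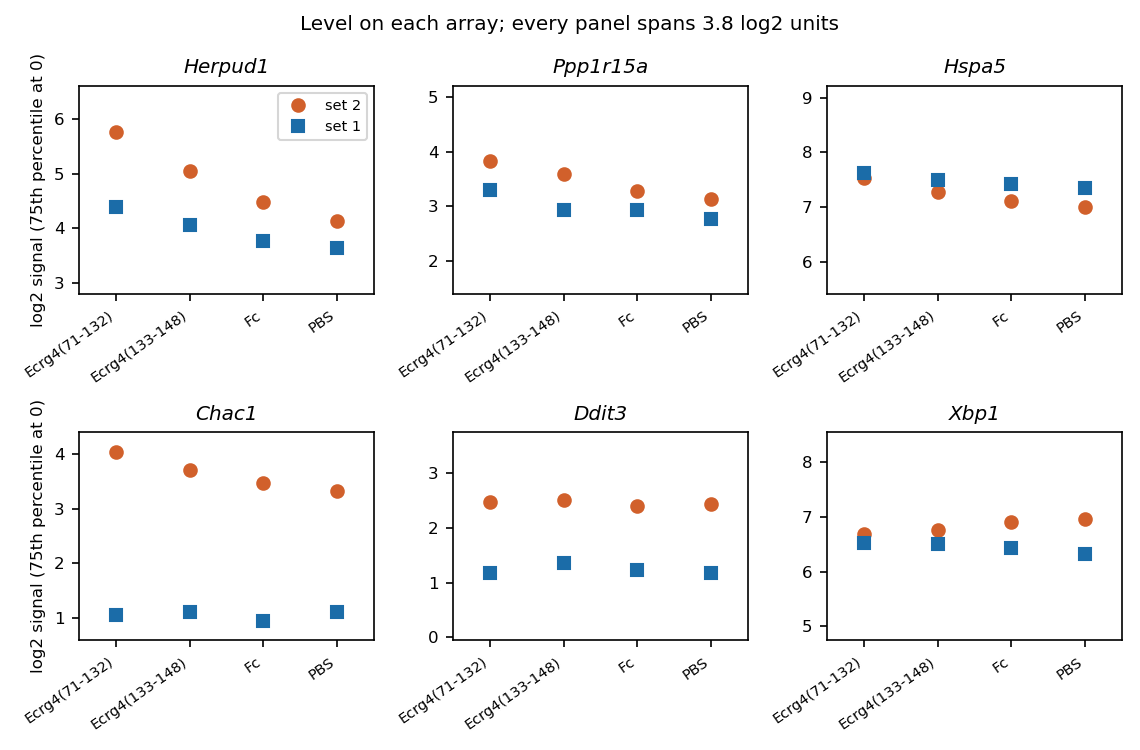
Level of 6 genes on each array (log2 signal, 75th percentile at 0), with treatments along the horizontal axis, circles for set 2 and squares for set 1, 1 point per array. Herpud1 is highest with Ecrg4(71-132) in both sets, at 5.77 and 4.39, and lowest with PBS, at 4.13 and 3.64, whereas Ddit3 and Chac1 differ mainly between the sets.

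The sensors and transcription factors lay on both sides of 0 against Fc. Atf4 stood at 8.46 and 7.52 with Ecrg4(71-132), at 8.31 and 7.42 with Ecrg4(133-148), at 8.36 and 7.49 with Fc, and at 8.28 and 7.38 with PBS. Xbp1 stood at 6.70 and 6.52 with Ecrg4(71-132), at 6.77 and 6.51 with Ecrg4(133-148), at 6.92 and 6.44 with Fc, and at 6.97 and 6.33 with PBS. The arrays of Atf4 split by set, and for Xbp1 the order of the treatments in set 2 was the reverse of that in set 1. Eif2ak3, the PERK gene, differed from Fc by -0.29 with Ecrg4(71-132) (SE 0.32), by -0.42 in set 2 and -0.15 in set 1. Atf6 differed by -0.15 (SE 0.15). The difference was 0.07 for Atf4 and -0.07 for Xbp1. None of the 4 passed (limma, adjusted p = 1).

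By class, the median difference of Ecrg4(71-132) from Fc was 0.05 for the chaperones, 0.04 for the degradation genes, -0.15 for the sensors and factors and 0.00068 for the ATF4 targets, beside -0.02 for all genes. With quantile scaling the medians were -0.0041 for the chaperones, 0.00035 for the degradation genes and -0.025 for the ATF4 targets, beside -0.030 for all genes. None of the 32 genes and none of the 19120 genes passed the adjusted threshold (limma, percent called 0), with or without the set as a block. At an unadjusted p under 0.05, 0 members and 644 genes (3.37%) were called without the block, and 6 members and 3559 genes (18.6%) with it. Of the 32, 14 were higher in both sets (28.5% of all genes) and 7 were lower in both (36.4%). A difference over 0.25 in both sets, a limit chosen after the values were seen, was met upward by 2 members, Herpud1 and Ppp1r15a (5.65% of all genes), and downward by none (8.31%). The lowest value among the chaperones was that of Sdf2l1, a component of BiP complexes, at -0.18 (SE 0.14), and Syvn1, the ubiquitin ligase HRD1 of the degradation complex, differed by 0.09 (SE 0.11).

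**Figure D3:**
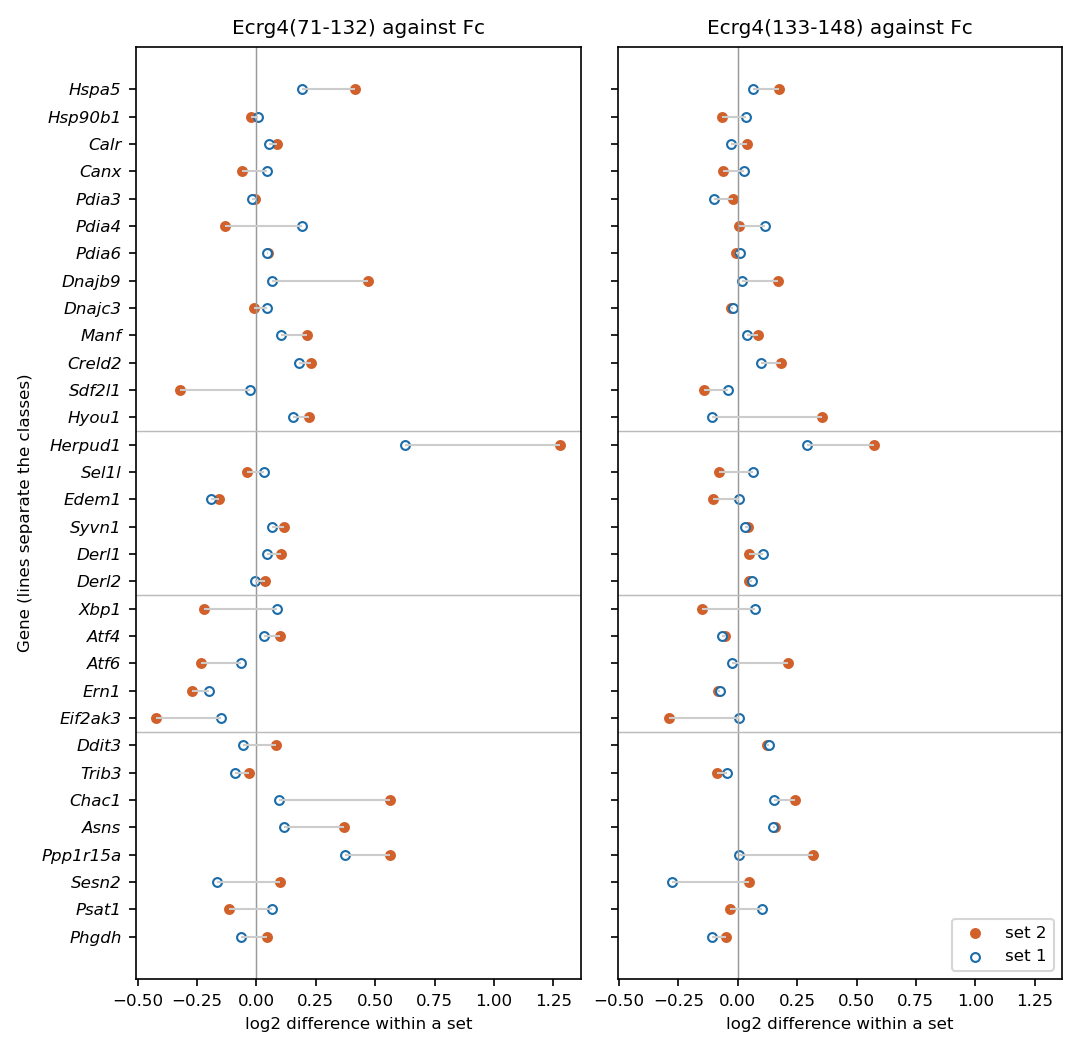
Difference of each fragment from Fc within set 2 (filled circles) and within set 1 (open circles) for the 32 genes, on the log2 scale, with a line joining the sets and Ecrg4(71-132) in the left panel. Herpud1 lies farthest to the right in both panels, at 1.28 and 0.63 with Ecrg4(71-132), and most chaperones lie near 0.

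Ecrg4(133-148) was set against the same Fc arrays, so its values share a control with those above. Herpud1 again had the largest difference of the 32, at 0.43 (SE 0.59), 0.57 in set 2 and 0.29 in set 1. In fits without the block it was -0.07 when the set 2 array of Ecrg4(133-148) was left out and 0.93 when the set 1 array was. The difference between the sets enters those values, and with the block the range was 0.32 to 0.55. Ppp1r15a differed by 0.16 (SE 0.32), Asns by 0.15 (SE 0.14) and Hspa5 by 0.12 (SE 0.19). Ddit3 differed by 0.13 and Atf4 by -0.06, and the mean of the probes of Atf4 gave 0.03. Hyou1, a large ER chaperone, differed by 0.12 (SE 0.17), 0.35 in set 2 and -0.11 in set 1, and Sdf2l1 by -0.09 (SE 0.14). Derl1, a membrane subunit of the degradation route, differed by 0.08 (SE 0.13). Among the sensors and factors the difference was 0.09 for Atf6 (SE 0.15), -0.14 for Eif2ak3 (SE 0.32) and -0.04 for Xbp1 (SE 0.29). The class medians were 0.0049 for the chaperones, 0.05 for the degradation genes, -0.06 for the sensors and factors and 0.08 for the ATF4 targets, beside -0.0037 for all genes. With quantile scaling the chaperone median was -0.028, beside -0.0034 for all genes. No member and no gene passed (limma, percent called 0), and at an unadjusted p under 0.05 there were 0 members and 88 genes (0.46%) without the block, and 0 members and 1006 genes (5.26%) with it. Of the 32, 13 were higher in both sets (28.5% of all genes) and 7 were lower in both (30.6%). Over 0.25 in both sets, Herpud1 alone of the 32 was higher (2.45%) and none was lower (3.57%).

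The fragments were compared with each other at the same dose and time. They are different stretches of the same protein, residues 71 to 132 and residues 133 to 148, on the same carrier. Herpud1 differed by -0.52 for Ecrg4(133-148) against Ecrg4(71-132), with a 95% interval from -2.02 to 0.97, which was -1.12 to 0.07 when the set was a block. For Ppp1r15a the difference was -0.31 (interval -1.11 to 0.50, and -0.58 to -0.04 with the block), for Hspa5 -0.18 (-0.67 to 0.31) and for Atf6 0.24 (-0.12 to 0.61). None passed (limma, adjusted p = 1, and 0.714 with the block for all 4), and these intervals leave room for differences in either direction without the block. Without the set 2 array of Ecrg4(71-132) and without the block the difference of Herpud1 was 0.17, and without its set 1 array -1.21. With the block and each array left out in turn it ran from -0.84 to -0.20. Sdf2l1 differed by 0.08, Syvn1 by -0.06, Eif2ak3 by 0.14 and Asns by -0.09. Xbp1 differed by 0.03, Atf4 by -0.13 and Ddit3 by 0.11, and none of these 7 passed (limma, adjusted p = 1). Of the 32, 15 were lower in both sets with Ecrg4(133-148) (23.7% of all genes) and 7 were higher (33.5%). Herpud1 alone was lower by over 0.25 in both sets (3.7%). At an unadjusted p under 0.05, 0 members and 141 genes (0.737%) were called without the block, and 1 member, Ppp1r15a, and 1210 genes (6.33%) with it.

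Fc was compared with PBS for the effect of the carrier. Of the 32 genes, 23 were higher with Fc in both sets (39.6% of all genes) and none was lower in both (16.7%), with a median difference near 0 in each class. The class medians were 0.07 for the chaperones, 0.05 for the degradation genes, 0.03 for the sensors and factors and 0.05 for the ATF4 targets, beside 0.03 for all genes. Under quantile scaling they were 0.018 for the chaperones, 0.0089 for the degradation genes and 0.0067 for the ATF4 targets, beside 0.0051 for all genes. Hyou1 differed by 0.14 (SE 0.17), Asns by 0.10 (SE 0.14) and Phgdh, the first enzyme of serine synthesis, by 0.11 (SE 0.21). Hspa5 differed by 0.09 (SE 0.19), Calr, the gene of the lectin chaperone calreticulin, by 0.07 (SE 0.12), Syvn1 by 0.05 (SE 0.11) and Derl1 by 0.05 (SE 0.13). The difference was 0.11 for Ern1, the IRE1 gene (SE 0.83), 0.10 for Atf4 (SE 0.56), 0.03 for Xbp1 (SE 0.29) and 0.01 for Ddit3 (SE 0.75). No member and no gene passed (limma, percent called 0), and at an unadjusted p under 0.05 there were 51 genes (0.267%) without the block and 355 (1.86%) with it, and no member in either. No member was higher (1.55%) or lower (1.73%) by over 0.25 in both sets.

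Against PBS, a control that both fragment comparisons share, Herpud1 differed by 1.20 with Ecrg4(71-132) (SE 0.59) and by 0.67 with Ecrg4(133-148) (SE 0.59). Ppp1r15a differed by 0.62 and 0.31 in the same order (SE 0.32 for each), and Hspa5 by 0.39 and 0.21 (SE 0.19 for each). Asns differed by 0.34 and 0.25 (SE 0.14 for each) and Hyou1 by 0.33 and 0.26 (SE 0.17 for each). Without the set 2 array of Ecrg4(71-132) and without the block the difference of Herpud1 was 0.51 for that fragment, and without the set 1 array it was 1.88. With the block and each array left out in turn it ran from 0.88 to 1.51. Syvn1 differed by 0.15 with Ecrg4(71-132) (SE 0.11) and Derl1 by 0.13 with Ecrg4(133-148) (SE 0.13). Eif2ak3 differed by -0.25 with Ecrg4(71-132) and -0.11 with Ecrg4(133-148), and Atf6 by -0.14 and 0.10 in the same order. Atf4 differed by 0.16 and 0.04, Xbp1 by -0.04 and -0.01, and Ddit3 by 0.02 and 0.13. None passed (limma, adjusted p = 1), and percent called was 0 in both comparisons. Without the block no member had an unadjusted p under 0.05 in either comparison (4.88% of all genes with Ecrg4(71-132) and 0.973% with Ecrg4(133-148)). With it the unadjusted p was under 0.05 for 8 members and 4531 genes (23.7%) with Ecrg4(71-132), and for 4 members and 1749 genes (9.15%) with Ecrg4(133-148). With the block and without the set 1 array of Ecrg4(71-132), the difference of Herpud1 from PBS was 1.51 (limma, adjusted p = 0.0468), and 1078 genes passed in all. That fit keeps 1 array of Ecrg4(71-132), the one with the higher Herpud1 level, and assumes that it varies like the other treatments, so the p does not test the spread of Herpud1 under this fragment. Over all settings the adjusted p of this difference ran from 0.0468 to 1.

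Against PBS, 17 of the 32 were higher in both sets with Ecrg4(71-132) (34.3% of all genes) and 4 lower (31.5%), and with Ecrg4(133-148) 17 were higher (36.3%) and 1 lower (23.8%). By over 0.25 in both sets, 4 were higher with Ecrg4(71-132) (7.72%), namely Hspa5, Creld2, Herpud1 and Ppp1r15a, and 2 with Ecrg4(133-148) (4.41%), Creld2 and Herpud1. None was lower by as much (9.31% and 4.48%). The class medians against PBS were 0.14 for the chaperones, 0.12 for the degradation genes, -0.12 for the sensors and factors and 0.06 for the ATF4 targets with Ecrg4(71-132), beside 0.01 for all genes. With Ecrg4(133-148) they were 0.08, 0.11, 0.03 and 0.09 in that order, beside 0.03 for all genes. With quantile scaling the medians were 0.031 for the chaperones, 0.0067 for the degradation genes and -0.015 for the ATF4 targets with Ecrg4(71-132), beside -0.024 for all genes. With Ecrg4(133-148) they were then -0.015 for the chaperones, 0.031 for the degradation genes, -0.041 for the sensors and factors and 0.035 for the ATF4 targets. The median of all genes was then 0.0037.

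An ascending order of PBS, Fc, Ecrg4(133-148) and Ecrg4(71-132) in both sets was held by 6 of the 32 genes and by 4.61% of all genes. It was looked for after the values were seen. The 6 were Hspa5, Manf, Creld2, Herpud1, Syvn1 and Ppp1r15a, named for that reason. Manf and Creld2 encode ER-resident proteins that can be secreted and that ER stress induces. The opposite order was held by 0 of the 32 and by 2.48% of all genes. Ppp1r15a was the 1 ATF4 target in this order, and among the other ATF4 targets Chac1, Asns and Sesn2 held it in set 2 alone.

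Many genes passed between set 2 and set 1, unlike between the treatments. In set 2, 14 of the 32 genes were higher (36.4% of all genes) and 9 were lower (22.8%), so that 23 passed in all, against 59.3% of the 19120 genes (limma with treatment in the fit). For 21 of the 32 the 4 arrays of set 2 did not overlap the 4 arrays of set 1, which held for 55.6% of all genes. Each set occupied its own column of 1 slide, so set and column cannot be told apart, and each treatment lay in the same position of both columns, so treatment and position cannot be told apart either.

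The widest differences between the sets were those of Chac1 and Trib3, both ATF4 targets. Chac1 stood at 4.03 with Ecrg4(71-132), 3.71 with Ecrg4(133-148), 3.47 with Fc and 3.33 with PBS in set 2, and at 1.05, 1.11, 0.95 and 1.11 on the matching arrays of set 1. Every set 2 array lay above every set 1 array. Chac1 was 2.58 higher in set 2 (SE 0.13), or 5.99-fold (limma, adjusted p = 0.000277), and 144 of the 19120 genes had a larger difference upward. Trib3, a pseudokinase that ATF4 and CHOP induce, stood between 5.03 and 5.15 in set 2 and between 3.40 and 3.49 in set 1, a difference of 1.65 (SE 0.04, limma adjusted p = 9.1e-05). Sesn2, a stress-induced inhibitor of mTORC1 signalling, was 1.34 higher in set 2 and Ddit3 1.22 higher (limma, adjusted p = 0.000425 and 0.000172). Ppp1r15a was 0.47 higher although its sets overlapped (SE 0.07, limma adjusted p = 0.00526).

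Other genes of this class ran the other way. Psat1, the aminotransferase of serine synthesis, stood between 4.56 and 4.68 in set 2 and between 5.67 and 5.80 in set 1, and was 2.14-fold lower in set 2 (log2 SE 0.06, limma adjusted p = 0.000282). Phgdh was also lower in set 2, with a difference of -0.30 (SE 0.04, limma adjusted p = 0.00508). Asns differed by 0.10 and did not pass (limma, adjusted p = 0.249). Of the 8 ATF4 targets, 5 were higher, 2 were lower and 1 did not pass, and the median difference was 0.84, beside 0.11 for all genes.

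Among sensors and factors, 4 of 5 were higher in set 2 and 1, Atf6, did not pass. Ern1 stood between 0.32 and 0.59 in set 2 and between -0.94 and -0.75 in set 1, a difference of 1.35 (SE 0.05, limma adjusted p = 0.000147). Atf4 was 0.90 higher (SE 0.04, limma adjusted p = 0.000219), and no array of set 2 overlapped set 1. Eif2ak3 was 0.46 higher and Xbp1 0.39 higher (limma, adjusted p = 0.0104 and 0.0221). Xbp1 did not pass without either array of PBS, Fc or Ecrg4(133-148), where its difference lay between 0.31 and 0.43. The class median was 0.46.

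**Figure D4:**
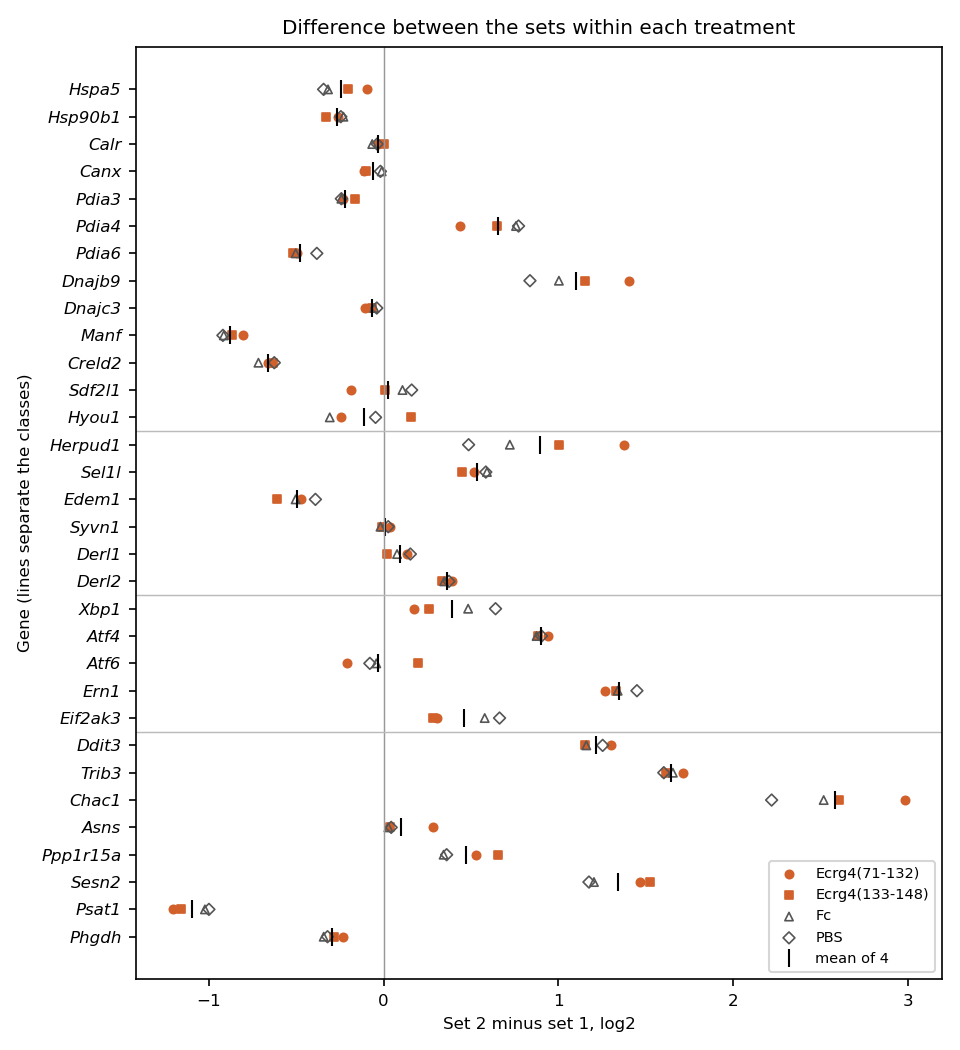
Difference of set 2 from set 1 within each treatment for the 32 genes (log2, 1 symbol per treatment), with a bar at the mean of the 4 treatments and lines between the classes. Chac1 lies farthest to the right, between 2.22 and 2.98, and Psat1 farthest to the left.

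Of the 13 chaperones, 2 were higher in set 2, 6 were lower and 5 did not pass, with a median of -0.11 beside 0.11 for all genes. Dnajb9, a BiP co-chaperone that IRE1 and XBP1 induce, stood at 3.16 with Ecrg4(71-132), 2.86 with Ecrg4(133-148), 2.69 with Fc and 2.67 with PBS in set 2, and between 1.69 and 1.84 in set 1. It was 2.14-fold higher in set 2 (log2 SE 0.11, limma adjusted p = 0.00133), and Pdia4, a protein disulfide isomerase, was 0.65 higher (limma, adjusted p = 0.00218). Manf stood between 3.67 and 3.96 in set 2 and between 4.59 and 4.77 in set 1, and differed by -0.88 (SE 0.05, limma adjusted p = 0.000276). Creld2 differed by -0.66 and Pdia6, another disulfide isomerase, by -0.48 (limma, adjusted p = 0.00049 and 0.00148). Hspa5 differed by -0.24 (SE 0.06, limma adjusted p = 0.0246) with overlapping sets. Hspa5 did not pass with treatment left out of the fit (limma, adjusted p = 0.116), with no filter on dim probes, or without either array of PBS, Fc or Ecrg4(133-148). Hsp90b1, the Hsp90 of the ER, differed by -0.27 and Pdia3, a disulfide isomerase for glycoproteins, by -0.22 (limma, adjusted p = 0.00659 and 0.0111). Calr and Canx, the lectin chaperones calreticulin and calnexin, with Dnajc3, Sdf2l1 and Hyou1, lay between -0.11 and 0.02 and did not pass.

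Of the 6 degradation genes, 3 were higher in set 2, 1 was lower and 2 did not pass, with a median of 0.23. Herpud1 was 0.90 higher (SE 0.16, limma adjusted p = 0.00851), by 1.37 with Ecrg4(71-132) and by 0.72 with Fc and 0.49 with PBS, and its sets overlapped. It did not pass with treatment left out of the fit (limma, adjusted p = 0.0607). Sel1l, the adaptor of the HRD1 complex, was 0.54 higher and Derl2, a membrane subunit of the same route, 0.36 higher (limma, adjusted p = 0.00113 and 0.00219). Syvn1 and Derl1 differed by 0.01 and 0.10 and did not pass. Edem1, which marks misfolded glycoproteins for removal, differed by -0.49 (limma, adjusted p = 0.00198). Over 2-fold, 6 of the 32 genes were higher in set 2 (8.43% of all genes) and 1 was lower (6.81%).

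**Figure D5:**
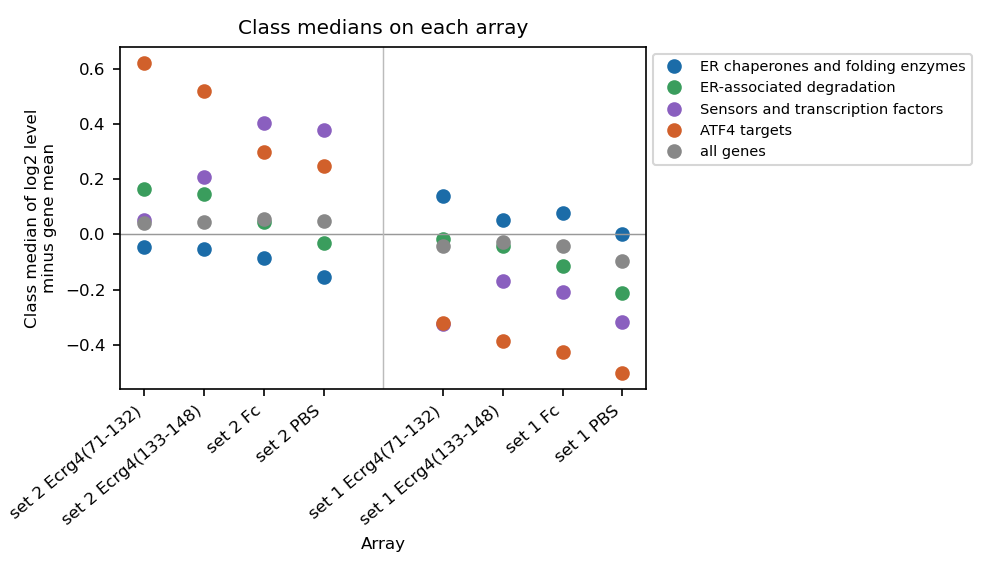
Median over each class of the log2 level minus the mean of the gene over 8 arrays, for each array, with set 2 on the left, set 1 on the right, and all genes in grey. The ATF4 targets lie between 0.25 and 0.62 in set 2 and between -0.50 and -0.32 in set 1, and the chaperones lie between -0.15 and -0.05 in set 2 and between -0.00029 and 0.14 in set 1.

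Whether the response to the fragments itself differed between the sets was tested with a product term, both fragments against Fc and PBS. The response of Herpud1 was 1.11 in set 2 and 0.52 in set 1, a difference of 0.58 (SE 0.18, limma adjusted p = 0.441). For Xbp1 the responses were -0.21 and 0.13, a difference of -0.34 (limma, adjusted p = 0.434). For Eif2ak3 they were -0.36 and -0.04, and for Sesn2 0.08 and -0.23 (limma, adjusted p = 0.433 for both). Hspa5 had responses of 0.35 and 0.17, Dnajb9 of 0.33 and -0.03, Sdf2l1 of -0.20 and 0.02 and Sel1l of -0.04 and 0.07. For Ppp1r15a they were 0.51 and 0.27, for Atf4 0.06 and 0.04 and for Ddit3 0.08 and 0.06, and none of these 7 differences passed (limma, adjusted p from 0.461 to 0.937). No gene passed (percent called 0), and 4 members and 11.2% of all genes had an unadjusted p under 0.05, the 4 being Herpud1, Xbp1, Eif2ak3 and Sesn2.

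The wider genes of these routes were taken from 7 lists, of which 112 genes were measured. In no treatment comparison did any of them pass (limma). With Ecrg4(71-132) against Fc, the 21 measured other ATF4 and amino acid response genes had a median of 0.08, beside -0.02 for all genes, and 11 were higher in both sets (28.5% of all genes) and 5 lower in both (36.4%). Slc7a11, the cystine transporter gene, stood at 3.58 and 2.41 with Ecrg4(71-132), at 2.58 and 1.68 with Ecrg4(133-148), at 1.46 and 1.29 with Fc, and at 1.17 and 0.91 with PBS. The fragment arrays of Slc7a11 all lay above the control arrays. Its difference from Fc was 1.62 with Ecrg4(71-132) (SE 0.47) and 0.76 with Ecrg4(133-148) (SE 0.47; limma, adjusted p = 1 for both). Within the sets it was 2.12 and 1.12 with Ecrg4(71-132), and 1.12 and 0.39 with Ecrg4(133-148). Slc1a4, a neutral amino acid transporter gene, differed by 0.68 with Ecrg4(71-132) (SE 0.15), 0.85 in set 2 and 0.52 in set 1 (limma, adjusted p = 1). The SEs and p-values of Slc7a11 and Slc1a4 come from fits without the block, so the difference between the sets stays in them.

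Between the sets, where 36.4% of all genes were higher in set 2 and 22.8% lower, 9 of the 21 other ATF4 and amino acid response genes were higher and 4 were lower. Niban1 was 1.29 higher, and Shmt2, the mitochondrial enzyme of serine use, differed by -1.29 (limma, adjusted p = 0.000137 for both). Of 17 other sensors, kinases and factors, 10 were higher and 1 was lower, with Wfs1, an ER membrane protein gene, 1.08 higher. Of 19 other folding and redox genes, 2 were higher and 8 were lower, with Txndc5, a disulfide isomerase gene, at -0.76. Of 14 other degradation genes 3 were higher and 3 lower, of 12 aminoacyl-tRNA synthetase genes 5 and 2, and of 18 translocation genes 3 and 6. The lists hold 11 to 21 measured genes each, and their shares were not tested against those of all genes. The cytosolic heat shock genes, 11 measured, had 1 higher and 5 lower, with Hspb1 at -5.47 (SE 0.32, limma adjusted p = 0.000366).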

How the data were processed

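Total RNA was measured on 8 one-colour Agilent arrays and read with Feature Extraction (version 11.0.1.1 in the submitters' processing notes). The deposited scanner files hold the intensity of each spot after background subtraction by that software, per the file headers, and the authors' deposited table holds log2 values with each array's 75th percentile at 0. Here log2 of the processed signal minus its 75th percentile was used, from 55681 probes, of which 28026 were named through RefSeq accessions. Control spots and 104 probes with outlier flags were left out, 25250 probes passed the filter on dim probes, and the brightest probe stood for each of 19120 genes.

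Treatments were compared with limma 3.58.1 in R 4.3.3 over all 8 arrays, without a block, and sets with treatment as a covariate. The difference between the sets therefore stays in the spread of the treatment tests. Their SEs are wide for genes that differ strongly between the sets, such as Chac1, Ern1, Ddit3 and Atf4. P-values were adjusted by Benjamini-Hochberg over all genes, with a threshold of 0.05. The set differences of the 6 pairs of treatments correlated at 0.783 to 0.862 across genes, so the set numbers in the labels pair the arrays, and values with the set as a block are given where they bear on a result. The fits were tested on simulated data.

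The 32 genes, their classes and the wider lists were chosen with earlier results of these data known. Hspa5, Xbp1, Atf4 and Ddit3 are named throughout. In each comparison up to 3 genes per class and direction that passed are named by size, or the 2 with the smallest p in each class where none passed, and of each wider list at most the 2 with the smallest p. Other genes are named to account for every member or to show a count, and were chosen after their values were seen. The alternatives were normexp background correction with an offset of 50, quantile and median scaling, other filters on dim probes, the mean of a gene's probes, the deposited table, an intensity trend, the block, and leaving out each array.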

Additional observations from a re-analysis of the deposited data

How the results depend on the processing

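The count of 0 genes in the 6 treatment comparisons held under the set block, so the pairing changed no call there, and under every other setting with all 8 arrays. With the block and 1 array left out, 0 to 482 genes passed for Ecrg4(71-132) against Fc and 0 to 1078 against PBS, both highest without the set 1 array of Ecrg4(71-132), and 0 to 1 members against PBS. Between the sets 11333 genes passed, and 18666 with no filter on dim probes, where more genes are tested. Of the called genes 61.5% were higher in set 2, 52.5% with quantile scaling and 72.8% with no filter, and the median of all genes was 0.11, with 0.031 under quantile and 0.062 under median scaling and 0.36 with no filter. Herpud1 lost its call between the sets with treatment left out (limma, adjusted p = 0.0607). The fragment response between sets has no block alternative.

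Class medians moved as follows, by at least the SD between the values of the 2 sets (of the 4 treatments for set 2 against set 1), and the cause was not tested. With normexp background correction the class medians that moved were 0.057 chaperones and 0.022 degradation genes (Ecrg4(133-148) against Fc), 0.078 chaperones (Fc against PBS), 0.15 chaperones and 0.10 degradation genes (Ecrg4(71-132) against PBS), 0.11 chaperones and 0.11 ATF4 targets (Ecrg4(133-148) against PBS), 0.17 degradation genes (set 2 against set 1). With quantile scaling the class medians that moved were -0.0041 chaperones and 0.00035 degradation genes (Ecrg4(71-132) against Fc), -0.028 chaperones and 0.020 degradation genes (Ecrg4(133-148) against Fc), -0.023 chaperones (Ecrg4(133-148) against Ecrg4(71-132)), 0.018 chaperones, 0.0089 degradation genes, 0.0067 ATF4 targets (Fc against PBS), 0.031 chaperones, 0.0067 degradation genes, -0.015 ATF4 targets (Ecrg4(71-132) against PBS), -0.015 chaperones, 0.031 degradation genes, 0.035 ATF4 targets (Ecrg4(133-148) against PBS), -0.20 chaperones and 0.11 degradation genes (set 2 against set 1). With median scaling the class medians that moved were 0.055 chaperones (Ecrg4(71-132) against Fc), 0.052 chaperones (Fc against PBS), 0.13 chaperones and 0.11 degradation genes (Ecrg4(71-132) against PBS), 0.066 chaperones and 0.082 ATF4 targets (Ecrg4(133-148) against PBS), 0.18 degradation genes (set 2 against set 1). With the mean of the probes of a gene the class medians that moved were 0.038 chaperones (Ecrg4(71-132) against Fc), 0.031 chaperones and 0.025 degradation genes (Ecrg4(133-148) against Fc), 0.12 chaperones and 0.11 degradation genes (Ecrg4(71-132) against PBS), 0.086 chaperones and 0.10 ATF4 targets (Ecrg4(133-148) against PBS). With the deposited table the class medians that moved were 0.058 chaperones (Ecrg4(71-132) against Fc), 0.024 chaperones and 0.064 degradation genes (Ecrg4(133-148) against Fc), 0.079 chaperones (Fc against PBS), 0.16 chaperones and 0.14 degradation genes (Ecrg4(71-132) against PBS), 0.10 chaperones and 0.12 ATF4 targets (Ecrg4(133-148) against PBS).

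Of the class medians that moved by less than this SD, the sign turned for the sensors and factors of Ecrg4(133-148) against PBS, 0.033 and -0.041 with quantile scaling. It also turned for the ATF4 targets of Ecrg4(71-132) against Fc, 0.00068 and -0.025 with quantile scaling, and for the degradation genes of Ecrg4(133-148) against Ecrg4(71-132), 0.0012 and -0.016 with normexp, and also below 0 with the mean of the probes.

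Leaving out each array in turn gave these ranges of the class medians, taken over fits without the block and, for treatments, also with it. An array left out without the block unbalances the sets, so the difference between them enters the comparisons of its treatment. The blocked fits alone, for Ecrg4(71-132) against Fc, gave 0.031 to 0.064 for the chaperones and 0.028 to 0.067 for the degradation genes. They gave -0.27 to -0.029 for the sensors and factors and -0.00030 to 0.060 for the ATF4 targets. For Ecrg4(71-132) against Fc they were -0.065 to 0.11 for the chaperones, 0.028 to 0.18 for the degradation genes, -0.41 to 0.17 for the sensors and factors, -0.27 to 0.68 for the ATF4 targets. For Ecrg4(133-148) against Fc they were -0.068 to 0.061 for the chaperones, -0.015 to 0.17 for the degradation genes, -0.43 to 0.20 for the sensors and factors, -0.31 to 0.57 for the ATF4 targets. For Ecrg4(133-148) against Ecrg4(71-132) they were -0.14 to 0.054 for the chaperones, -0.11 to 0.12 for the degradation genes, -0.10 to 0.32 for the sensors and factors, -0.56 to 0.35 for the ATF4 targets. For Fc against PBS they were -0.024 to 0.17 for the chaperones, -0.033 to 0.20 for the degradation genes, -0.30 to 0.36 for the sensors and factors, -0.31 to 0.46 for the ATF4 targets. For Ecrg4(71-132) against PBS they were -0.018 to 0.17 for the chaperones, 0.049 to 0.25 for the degradation genes, -0.36 to 0.28 for the sensors and factors, -0.22 to 0.69 for the ATF4 targets. For Ecrg4(133-148) against PBS they were -0.020 to 0.13 for the chaperones, 0.066 to 0.27 for the degradation genes, -0.41 to 0.31 for the sensors and factors, -0.23 to 0.65 for the ATF4 targets. For set 2 against set 1 they were -0.20 to -0.067 for the chaperones.

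Among members, none of which had passed in these comparisons, Xbp1 turned to -0.0027 for Ecrg4(133-148) against Ecrg4(71-132) with normexp and to 0.020 for Ecrg4(133-148) against PBS in the deposited table. Ddit3 for Fc against PBS turned to -0.0017 with normexp, -0.016 with quantile and -0.013 with median scaling, and to -0.0094 for Ecrg4(71-132) against PBS with quantile scaling. Xbp1 for Fc against PBS turned to -0.035 and Atf4 for Ecrg4(133-148) against PBS to -0.041 with quantile scaling, and Atf4 for Ecrg4(133-148) against Fc to 0.032 with the mean of its probes. Members whose sign turned when an array was left out, without or with the block, had the ranges below over both fits. Of these, Xbp1 turned with the block in every treatment comparison, and Ddit3 for Ecrg4(71-132) against Fc and PBS and Fc against PBS. For Ecrg4(133-148), Hyou1 and Atf6 turned with it against Fc, Sdf2l1 and Asns against Ecrg4(71-132), and Atf6 and Eif2ak3 against PBS. The others listed for treatments kept their sign with the block, and without it the difference between the sets enters. For Ecrg4(71-132) against Fc: Xbp1 -0.31 to 0.17, Atf4 -0.41 to 0.54, Eif2ak3 -0.57 to 0.0035, Ddit3 -0.64 to 0.66. For Ecrg4(133-148) against Fc: Hspa5 -0.040 to 0.28, Hyou1 -0.056 to 0.30, Herpud1 -0.069 to 0.93, Xbp1 -0.28 to 0.20, Atf4 -0.50 to 0.38, Atf6 -0.060 to 0.25, Eif2ak3 -0.43 to 0.14, Ddit3 -0.45 to 0.71, Ppp1r15a -0.17 to 0.49. For Ecrg4(133-148) against Ecrg4(71-132): Sdf2l1 -0.056 to 0.22, Herpud1 -1.21 to 0.17, Xbp1 -0.12 to 0.17, Atf4 -0.60 to 0.34, Eif2ak3 -0.012 to 0.29, Ddit3 -0.54 to 0.76, Ppp1r15a -0.63 to 0.021, Asns -0.23 to 0.049. For Fc against PBS: Hspa5 -0.083 to 0.26, Hyou1 -0.014 to 0.29, Derl1 -0.023 to 0.13, Xbp1 -0.29 to 0.35, Atf4 -0.35 to 0.55, Ern1 -0.61 to 0.84, Ddit3 -0.62 to 0.63, Phgdh -0.061 to 0.28. For Ecrg4(71-132) against PBS: Xbp1 -0.36 to 0.28, Atf4 -0.31 to 0.63, Eif2ak3 -0.58 to 0.078, Ddit3 -0.63 to 0.67. For Ecrg4(133-148) against PBS: Xbp1 -0.33 to 0.31, Atf4 -0.41 to 0.49, Atf6 -0.055 to 0.25, Eif2ak3 -0.44 to 0.22, Ddit3 -0.50 to 0.76, Ppp1r15a -0.013 to 0.64. For fragment response in set 2 against set 1: Atf4 -0.0039 to 0.051, Ddit3 -0.055 to 0.10.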
